A study of Caenorhabditis elegans with 10 samples.

Results

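Whole animals of the unc-104(R9QT102I) double mutant of Caenorhabditis elegans were compared with wild type (WT) animals by RNA-seq. The samples were chosen by their titles, which gave 2 libraries of the double mutant and 2 of WT, 4 of the 10 libraries in the series. The double mutant, called the T102I strain below, carried the R9Q change in the kinesin UNC-104 together with a second change in the same gene, T102I, and WT carried neither. The other 6 libraries came from unc-104(R9Q) animals and from the 2 other suppressed strains, in which R9Q was combined with G265R or with an unc-16 mutation; their values are set beside this comparison and enter an alternative fit. All animals were untreated, and total RNA of whole animals was sequenced. The labels gave no age, sex or strain background, and nothing in them tells whether 2 replicates were separate cultures. The p-values therefore cover only the spread between these samples, which may be technical. The purpose stated for the series was the level of unc-104 mRNA in the mutant and in the suppressed animals.

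UNC-104 is a kinesin of the kinesin-3 family, which walks along axonal microtubules and carries the precursors of synaptic vesicles from the cell body to the synapse. Animals with little UNC-104 function move poorly and hold vesicle proteins back in their neuronal cell bodies. A second change within the same motor that restores movement is called an intragenic suppressor. The comparison with WT asks which transcripts remained different in animals that carried both changes.

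Between 6340053 and 7023349 reads per library were assigned to a gene in these 4 libraries, so that 3 counts, the most that a count of 0 was read as, equalled 0.411 to 0.46 CPM, the unit of counts scaled to library size with TMM factors; these floors cover counting error only. The WT libraries lay close together, with 244 of 11050 genes more than 2-fold apart, and the T102I libraries farther apart, with 1876. Over genes, the biological coefficient of variation had a median of 0.0747 for WT and 0.393 for the T102I strain. The mitochondrial genome held 4.75 and 4.87% of assigned counts in WT, 4.95% in T102I replicate 2 and 0.0238% in T102I replicate 1 (95% Wilson interval 0.0226 to 0.025). Genes with at least 1 count numbered 15588 in T102I replicate 1 and 17780 to 17981 in the remaining 3 libraries. Tested members were found in the marker lists of intestine, hypodermis, muscle, pharynx, neurons, germline, oocytes and sperm, while none of the 6 vitellogenin genes passed the count filter. In whole animals, fewer cells of a type and less RNA per cell cannot be told apart.

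unc-104 (WBGene00006831) was at 0 counts in all 10 libraries, WT included, for each of its 4 transcripts. Reads that fell in more than 1 transcript were not counted in these files, so the zeros do not measure unc-104 mRNA and gave no check of the labels. unc-16 (WBGene00006755), which encodes a JNK scaffold that binds kinesin, had 26 and 42 counts in WT and 5 and 26 in the T102I strain. Nearly all of them, 25 and 41 in WT and 5 and 26 in the T102I strain, fell on 1 of its 20 transcript names. The gene also overlaps ZK1098.11 on the same strand, so these counts measure unc-16 mRNA in part at most. The log2 fold change of the unc-16 counts was -1.22 (95% interval -3.20 to 0.76, edgeR adjusted p = 0.426). This did not exceed the spread between replicates.

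Of 11050 genes tested, 450 (4.07%) were called at an adjusted p under 0.05 in edgeR's quasi-likelihood test with Benjamini-Hochberg adjustment. Of these, 296 (2.68% of the genes tested) were higher and 154 (1.39%) lower in the T102I strain. The calls in each list below stand against these shares. At an unadjusted edgeR p under 0.05 there were 2508 of the 11050 genes, in either direction. List counts at that threshold stand against this number. The higher genes included many components of the cuticle and of the transient matrix that precedes it, hedgehog-related genes of the skin, and smaller groups of lectins and fatty acid enzymes. The lower genes included 8 glutathione transferases and single genes of membrane transport, proteolysis and immunity. By the edgeR estimate, 415 of the called genes differed by more than 2-fold, 110 were over 16-fold higher and 10 over 16-fold lower. In 56 of the higher calls both WT libraries, and in 5 of the lower calls both T102I libraries, held 3 counts or fewer. For some called genes without a count in 1 strain, the bound given by 3 counts per library was under 16-fold. It was 10.7-fold for wrt-8 and 13.3-fold for WBGene00017496. In every called gene both T102I libraries lay on the same side of both WT libraries; over all genes tested this held in the higher direction for 28.1% and in the lower direction for 27.9%.

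The number of calls rested on the libraries that set the spread. When all 10 libraries were fitted together, 12 genes were called, all of them also called with the 4 libraries. The 4 higher ones were clec-60, clec-61, far-3 and pals-14, and the 8 lower ones were F56A4.3, clc-19, F01D5.2, cpr-3, C07D8.6, tag-293, K08D8.6 and T07D1.3. Without WT replicate 1 or 2 the number fell to 57 and 54, and without T102I replicate 1 or 2 it rose to 4779 and 5710. All 450 genes kept their direction in each of these fits.

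**Figure D1:**
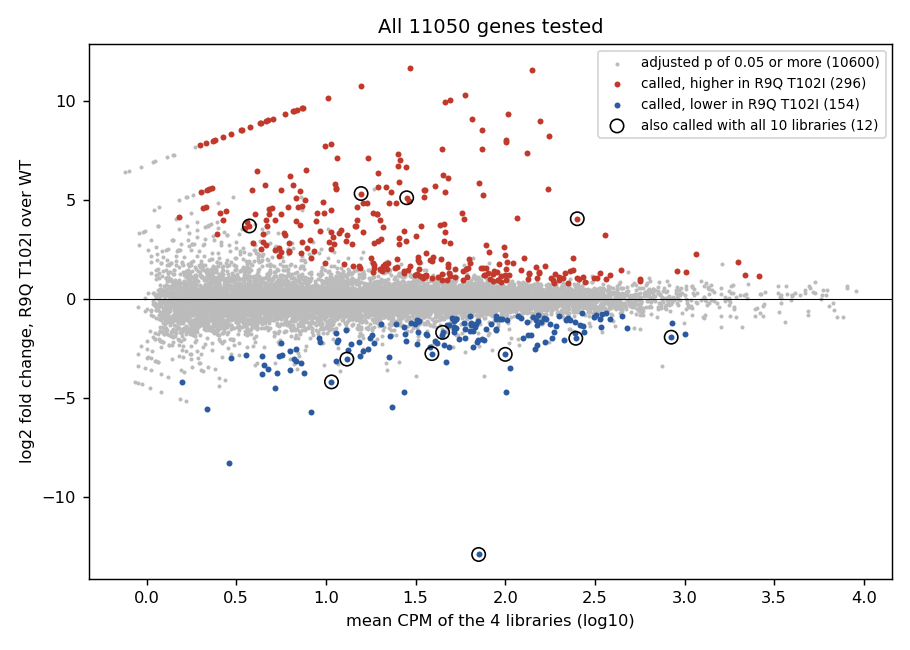
Each point is 1 of 11050 genes, with the log10 of its mean CPM over the 4 libraries on the horizontal axis and the log2 fold change of the T102I strain over WT on the vertical axis; red and blue points are the 296 higher and 154 lower calls, and rings mark the 12 genes also called with all 10 libraries. More higher than lower calls lie beyond a log2 fold change of 4 in size, 110 against 10. The gene at the bottom, F56A4.3 at -12.9, is the point farthest from 0.

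The cuticle of a nematode is rebuilt at each molt: the skin first secretes a transient apical matrix, then collagens in a fixed order, while proteases and hedgehog-related proteins take part in shedding the old layer. Transcripts of these genes are known to rise and fall with each larval molt. Of 35 genes in the list of the transient matrix and of molting, 22 were tested, of which 8 (36.4%, against 2.68% of all genes) were called higher in the T102I strain and 18 lay above 0. No member was called lower by edgeR or DESeq2, with 1 below 0 at an unadjusted p under 0.05. The median log2 fold change of the tested members was 1.19, against -0.01 for all genes.

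The gene for the zona pellucida protein noah-2 (chromosome IV, 14091254 to 14096626), a component of the transient matrix, was at 0.594 and 0.915 CPM in WT and at 197 and 203 CPM in the T102I strain. Its log2 fold change was 8.02 (SE 0.22, edgeR adjusted p = 0.0028), and the libraries of the 2 strains were far apart. The lipocalin gene lpr-3 (X, 11057401 to 11059793), whose product is secreted into the same matrix, stood at 0.594 and 1.07 CPM in WT and 209 and 196 CPM in the T102I strain (log2 fold change 7.90, SE 0.26, edgeR adjusted p = 0.0028). mlt-8, a gene named for its part in molting, went from 1.04 and 1.22 CPM to 90.7 and 86.1 CPM (log2 fold change 6.27, SE 0.21). The T102I replicates of these 3 genes lay close together, although T102I replicate 1 alone was poor in mitochondrial transcripts.

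The remaining called members of the list were sym-1, let-4 and egg-6, which encode leucine-rich repeat proteins of the apical matrix, mlt-10 and the hedgehog-related gene qua-1. Their log2 fold changes ran from 1.41 for egg-6 to 5.24 for sym-1, which was at 4.61 and 3.05 CPM in WT and at 150 and 141 CPM in the T102I strain. The neighbours of lpr-3, lpr-5 and lpr-4, were nearly silent in WT with 1 count each over both libraries. They held 1655 and 1262 counts in the T102I strain, a ratio of 1591 (95% counting interval 285 to 62869) for lpr-5 and of 1213 (217 to 47949) for lpr-4.

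Collagens of the annular furrows rose as a whole group. These 6 collagens (DPY-2, DPY-3, DPY-7, DPY-8, DPY-9 and DPY-10) build the circumferential furrows of the cuticle, and loss of any of them shortens the animal. All 6 were tested and all 6 were called higher, with a median log2 fold change of 5.78 and a range from 4.33 for dpy-9 to 10.04 for dpy-3. Their summed level was 7.88 and 6.86 CPM in WT and 600 and 427 CPM in the T102I strain. dpy-7 (X, 7536467 to 7537792) was at 0.743 and 0.153 CPM in WT and at 108.1 and 68.2 CPM in the T102I strain (log2 fold change 7.56, SE 0.56, edgeR adjusted p = 0.01). dpy-10 (II, 6710149 to 6712227) moved from 1.78 and 1.22 CPM to 86.6 and 72.1 CPM (log2 fold change 5.71, SE 0.27). Part of dpy-10 overlaps T14B4.19 on the same strand, so reads of this stretch cannot be told apart.

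Other collagens that shape the body behaved likewise. Of 15 in the list 8 were tested, and 6 were called higher, with a median log2 fold change of 8.62, or 6.95 when genes without a WT count were set at the bound given by 3 counts per library. dpy-4 was at 0.297 and 0.915 CPM in WT and at 350 and 278 CPM in the T102I strain, and dpy-13 at 1.19 and 1.07 against 437 and 258 CPM. dpy-5 had 1 count over both WT libraries and 3847 in the T102I strain, a ratio of 3698 (95% counting interval 663 to 146088). rol-8 had no WT count and was at least 32.9-fold higher. sqt-2 and lon-3 completed the called members. In each of these genes T102I replicate 1 was the higher of the 2 mutant libraries, and both lay far above WT.

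Among the numbered col genes, 82 of 156 were tested. Of these 18 (22%, against 2.68% of all genes) were called higher and 1 (1.22%, against 1.39%) was called lower. At an unadjusted edgeR p under 0.05, 31 lay above 0 and 8 below. The median log2 fold change was 0.38, which became 0.10 without T102I replicate 1 and 0.64 without T102I replicate 2. The sum over all 156, scaled to library size without TMM factors, did not rise. It was 24190 and 23930 CPM in WT and 21980 and 14520 CPM in the T102I strain. col-41 (X, 15175032 to 15176481) rose from 1.78 and 1.37 CPM to 278 and 251 CPM (log2 fold change 7.37, SE 0.21, edgeR adjusted p = 0.0028). It overlaps ucr-2.2 on the opposite strand, whose own log2 fold change was 0.50 (edgeR adjusted p = 0.121). col-154 was the called member that fell, from 270.0 and 280 CPM to 125 and 88.0 CPM. dpy-18, a subunit of the prolyl hydroxylase that modifies collagens, rose from 121 and 127 CPM to 366 and 254 CPM, the single call among 8 tested genes of collagen processing.

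**Figure D2:**
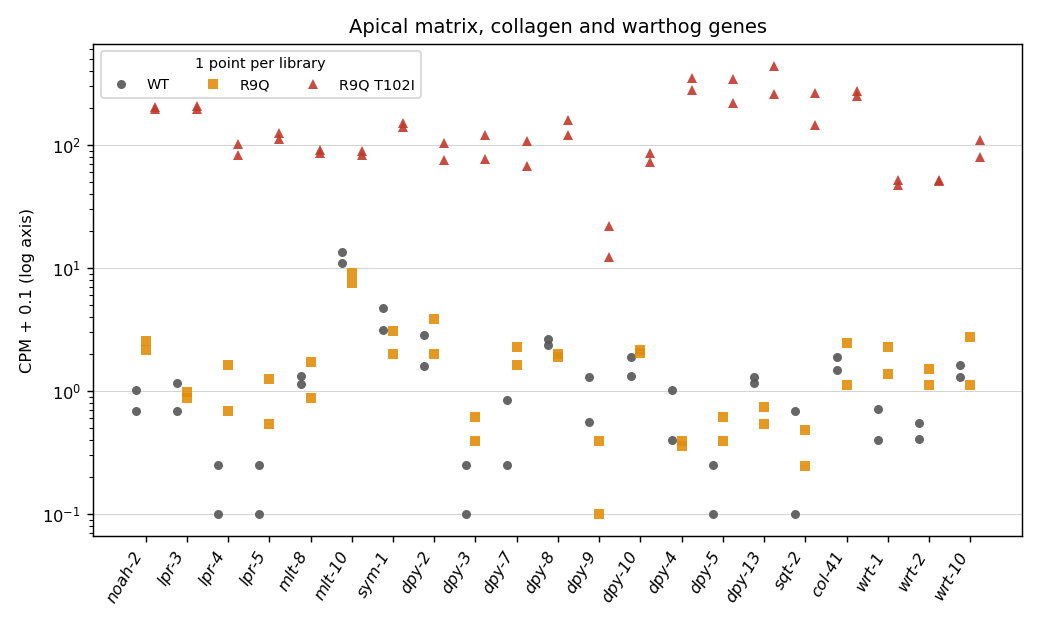
CPM plus 0.1 on a log axis for 21 genes of the apical matrix, the collagens and the warthog family, with 1 point per library of WT (circles), R9Q (squares) and the T102I strain (triangles). WT and R9Q points lie near or below 10 CPM for nearly all genes, and both T102I points lie above them for each gene shown.

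Hedgehog-related genes encode secreted proteins that descend from the same ancestor as hedgehog; in nematodes they are produced largely by the skin and its glia, and many are needed for molting. Of 59 such genes 32 were tested, and 10 (31.2%, against 2.68% of all genes) were called higher. One, grl-21, was called lower (3.12%, against 1.39%), and the median of the list was 1.05. The warthog genes wrt-1, wrt-2, wrt-4, wrt-8 and wrt-10 were all among the higher ones. wrt-2 (X, 3092395 to 3094349) was at 0.446 and 0.305 CPM in WT and at 51.7 and 51.2 CPM in the T102I strain (log2 fold change 7.03, SE 0.29, edgeR adjusted p = 0.0043). wrt-10 was at 1.19 and 1.53 CPM against 111 and 79.8 CPM. grl-5 had no count in WT and was at least 69.6-fold higher in the T102I strain, while grl-21 fell from 9.81 and 6.71 CPM to 0.461 and 0.684 CPM.

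Other skin and lining genes were called singly or in small numbers. ptr-4 and ptr-18 were called higher among 20 tested genes related to the hedgehog receptor patched (10%, against 2.68% of all genes). ptr-4 rose from 1.04 and 1.98 CPM to 66.8 and 72.7 CPM. Among 22 tested astacin proteases nas-14 and nas-15 were called higher (9.09%, against 2.68% of all genes). The cuticlin-like gene cutl-28 was the single call among 17 tested cuticlins. abu-11, abu-13 and abu-14, which encode glutamine- and asparagine-rich proteins of the pharyngeal lining, were higher, and pqn-8 of the same list was lower. tba-8, an alpha tubulin, rose from 1.34 and 0.305 CPM to 59.1 and 41.7 CPM.

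The calls on matrix genes depended on how the spread was estimated. With all 10 libraries in the edgeR fit, 0 members of the furrow, body-shape, molting, hedgehog-related and numbered collagen lists were called. Of the 6, 10, 25, 36 and 98 members tested there, 5, 7, 8, 9 and 11 lay above 0 at an unadjusted p under 0.05. At the same threshold 0, 1, 0, 1 and 5 lay below 0. Over all genes of that fit, 1297 of 12267 passed it in either direction. The furrow collagens kept a median of 5.79 in that fit, and of 4.71 with a further term for the 3 libraries poor in mitochondrial transcripts. With that term 0 furrow and 0 body-shape collagens were called, and 2 molting genes were called higher. Of the numbered col genes 1 was then called higher and 5 lower, with a median of 0.25. Of the hedgehog-related genes 0 were called higher and 2 lower, with a median of 0.67. Without WT replicate 1 or 2, 5 furrow collagens, 5 molting genes and 4 hedgehog-related genes were called in each case. Harvest stage was not in the labels, so stage and genotype cannot be told apart. Of 8 tested hypodermal marker genes 7 had a log2 fold change above 0. Their median was 1.11 (0.52 without WT replicate 1 and 0.61 without T102I replicate 2). The called members were dpy-7 and wrt-2. These are also counted above as a furrow collagen and a hedgehog-related gene, so the marker list is not independent of those lists.

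**Figure D3:**
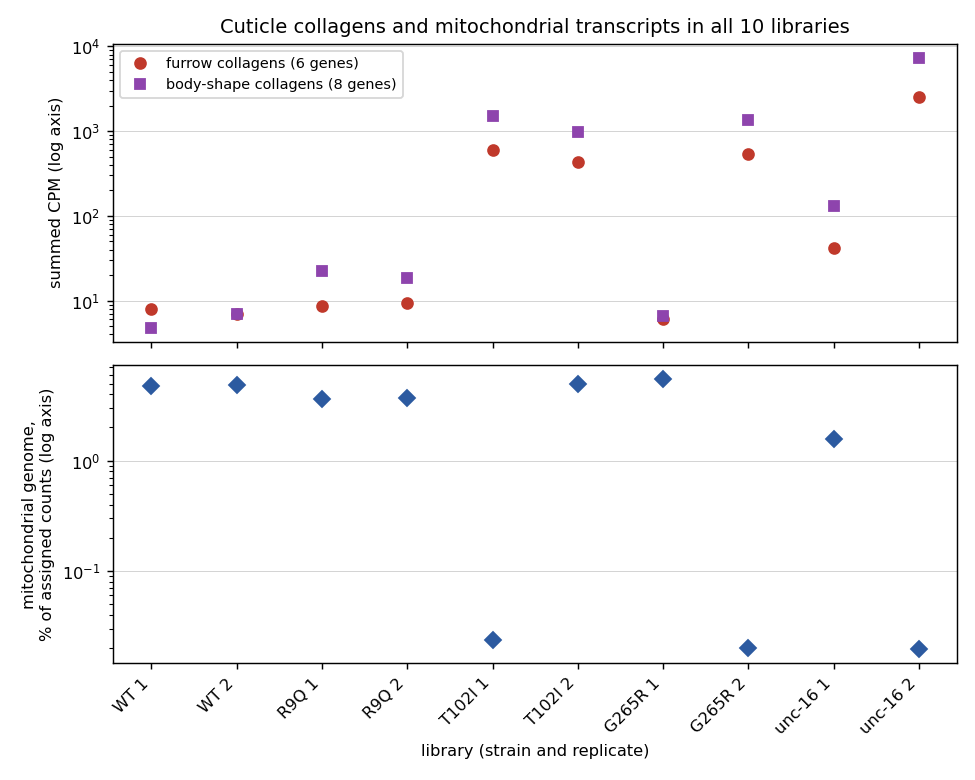
Summed CPM of the 6 furrow collagens and the 8 tested body-shape collagens (upper panel) and the share of assigned counts on the mitochondrial genome (lower panel) in each of the 10 libraries, both on log axes. Both T102I libraries have high collagen sums, 600 and 427 CPM for the furrow collagens, while 1 of them has a mitochondrial share of 0.0238% and the other 4.95%.

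Outside the cuticle, 2 neighbouring C-type lectin genes were among the 4 higher genes called in both fits. clec-60 (II, 10480043 to 10481874) was at 1.63 and 1.53 CPM in WT and at 53.6 and 56.1 CPM in the T102I strain (log2 fold change 5.10, SE 0.22, edgeR adjusted p = 0.0043, and 0.0432 with all 10 libraries). clec-61 (II, 10488730 to 10490537) was at 0.892 and 0.610 CPM against 32.9 and 28.5 CPM (log2 fold change 5.32, SE 0.33, edgeR adjusted p = 0.0076). Both are known for their induction in the intestine by bacterial infection. Over the C-type lectin family as a whole, 9 tested genes (8.65%) were higher and 6 (5.77%) lower, against 2.68% and 1.39% of all genes. clec-2, clec-47 and clec-52 were among the higher ones. clec-68 (IV, 3926417 to 3929105) fell most in the family: it was at 196 and 192 CPM in WT and at 7.52 and 7.12 CPM in the T102I strain (log2 fold change -4.72, SE 0.15, edgeR adjusted p = 0.0028).

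Several genes of fatty acid handling rose. far-3 (V, 12996787 to 12997522), which encodes a secreted fatty acid and retinol binding protein, was at 29.9 and 27.9 CPM in WT and at 535 and 416 CPM in the T102I strain (log2 fold change 4.04, SE 0.19, edgeR adjusted p = 0.0046). It overlaps far-5 on the opposite strand. Of 9 tested desaturases and elongases, fat-1, fat-5, fat-7 and elo-4 were called higher (44.4%, against 2.68% of all genes). elo-3 was called lower (11.1%, against 1.39%). fat-7, a desaturase that makes oleic acid from stearic acid, was at 21.5 and 20.3 CPM in WT and at 46.8 and 45.03 CPM in the T102I strain (log2 fold change 1.14, SE 0.17). acs-2, an acyl-CoA synthetase that feeds mitochondrial fatty acid oxidation, went from 836 and 861 CPM to 3434 and 2790 CPM (log2 fold change 1.88, SE 0.17). In peroxisomal oxidation acox-1.6 rose and acox-1.5 fell, the latter from 498 and 500 CPM to 182 and 193 CPM. Among 29 tested genes of fatty acid oxidation, acs-2 and acox-1.6 were the 2 called higher (6.9%) and acox-1.5 the 1 called lower (3.45%). The median of that list was 0.04, with 9 above and 7 below 0 at an unadjusted edgeR p under 0.05. None of the 5 desaturase and elongase calls remained without WT replicate 1 or without WT replicate 2.

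The pals genes are a family known for its response to intracellular infection. Of 20 tested, pals-14 and pals-32 were called, both higher (10%, against 2.68% of all genes). pals-14 was at 0.594 and 0.458 CPM in WT and at 8.44 and 5.47 CPM in the T102I strain (log2 fold change 3.68, SE 0.50, edgeR adjusted p = 0.0337). The median of the list was 0.37, which rose to 0.97 without WT replicate 2 and to 0.85 without T102I replicate 1, and neither gene was called without WT replicate 1 or without WT replicate 2. No member was called lower by edgeR or DESeq2 or had an unadjusted p under 0.05 below 0. The saposin-like genes spp-8 and spp-13 rose, spp-8 from 506 and 482 CPM to 1391 and 1236 CPM. The kinesin gene klp-6, which encodes a relative of UNC-104 that acts in ciliated sensory neurons of males, went from 10.8 and 8.85 CPM to 40.4 and 39.1 CPM (log2 fold change 2.01, SE 0.21, edgeR adjusted p = 0.0224). It overlaps another gene, C45G9.6, on the same strand, and was the single call among 26 tested kinesins and adaptors, whose median was 0.00.

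Glutathione transferases, which attach glutathione to reactive compounds in detoxification, were lower in part. Of 49 genes 43 were tested, 8 (18.6%, against 1.39% of all genes) were called lower, and the median was -0.49 (-0.74 without T102I replicate 1). None was called higher by edgeR, with 3 above 0 at an unadjusted p under 0.05 and 2 called higher by DESeq2. gst-20 (II, 13608154 to 13609824) was at 255 and 248 CPM in WT and at 47.3 and 38.5 CPM in the T102I strain (log2 fold change -2.55, SE 0.16, edgeR adjusted p = 0.0076). gst-12 fell from 277 and 271 CPM to 71.1 and 48.5 CPM and gst-38 from 70.7 and 68.2 CPM to 19.5 and 19.4 CPM. Without WT replicate 1 or 2, 1 member was called lower in each case.

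The glutathione transferases gst-20, gst-14, gst-12 and gst-16 lie next to each other on chromosome II between 13608154 and 13624440 and all 4 fell. Such copies can be alike in sequence, and reads aligned to more than 1 place were not counted, so these counts may be partial. The cytochrome P450 family split, with 4 higher (6.9%) and 3 lower (5.17%) of 58 tested. The UDP-glucuronosyltransferase family split too, with 2 higher and 2 lower of 48 tested, 4.17% each. Over all genes 2.68% were higher and 1.39% lower. cyp-35B2 fell from 12.8 and 15.3 CPM to 1.23 and 0.821 CPM (log2 fold change -3.76), while cyp-35A2 rose from 32.2 and 31.1 CPM to 79.5 and 104.3 CPM. The glutathione peroxidase gene gpx-3 fell from 162 and 163 CPM to 82.3 and 82.5 CPM, the single antioxidant call among 10 tested.

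Genes of membrane transport and cell junctions were among the largest decreases. nhx-6 (II, 1670829 to 1674401), a sodium and proton exchanger, was at 49.6 and 41.2 CPM in WT and at 1.23 and 0.821 CPM in the T102I strain (log2 fold change -5.45, SE 0.31, edgeR adjusted p = 0.007). best-2, a bestrophin channel gene, was at 15.8 and 16.6 CPM against 0.461 and 0.137 CPM (log2 fold change -5.71, SE 0.52). The claudin-like gene clc-19 (III, 872621 to 873566) was at 175 and 175 CPM in WT and at 25.6 and 24.4 CPM in the T102I strain (log2 fold change -2.80, SE 0.13, edgeR adjusted p = 0.0045). It was also called with all 10 libraries, at an adjusted p of 0.0432 in edgeR. cpr-3, a cathepsin B-like protease gene, fell from 393 and 399 CPM to 112 and 86.4 CPM and was called in both fits, as was tag-293, which fell from 22.1 and 18.6 CPM to 1.38 and 0.821 CPM.

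F56A4.3 (WBGene00018911; V, 2453414 to 2456147) was singled out after its values were seen. It had 962 and 927 counts in the WT libraries and 0 in both T102I libraries, and was at least 326-fold lower (edgeR adjusted p = 0.0045). The 2 R9Q libraries and the other suppressed strains, all of which carry R9Q, lay between 0 and 0.257 CPM. Also picked out after their values were seen were 2 further sequences on chromosome V, annotated as pseudogenes, with next to no reads in the T102I strain. WBGene00017496 (2345676 to 2348123) had 41 and 36 counts in WT and none in the T102I strain and was at least 13.3-fold lower. WBGene00010209 (17637982 to 17640042) had 29 and 28 counts against 0 and 1. In the R9Q libraries WBGene00017496 had 1 and 0 counts and WBGene00010209 had 3 and 1. Both lay between 0 and 0.476 CPM in the G265R and unc-16 libraries.

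The lysozyme genes lys-3 and lys-7 fell among 9 tested (22.2%, against 1.39% of all genes). lys-3 went from 128 and 110 CPM to 23.5 and 34.8 CPM. nhr-112, nhr-3, nhr-63 and nhr-198 were lower among 157 tested nuclear hormone receptors, a share of 2.55% against 1.39% of all genes. None of this family was called higher by edgeR, with 10 above 0 at an unadjusted p under 0.05 and 4 called higher by DESeq2. ttr-28 and ttr-29, a neighbouring pair of transthyretin-related genes, and ttr-21 were lower among 31 tested (9.68%, against 1.39% of all genes). ttr-29 fell from 82.2 and 82.1 CPM to 13.5 and 16.8 CPM. Antimicrobial peptide genes of the epidermis, known to rise on wounding and fungal infection, had 12 of 13 tested members below 0 and a median of -1.49, which was -2.52 without T102I replicate 1. Of these 1, cnc-11, was called by edgeR and 6 by DESeq2; summed over the 13 tested members, the list stood at 1568 and 1380 CPM in WT and 993 and 309 CPM in the T102I strain, so the T102I libraries differed widely.

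**Figure D4:**
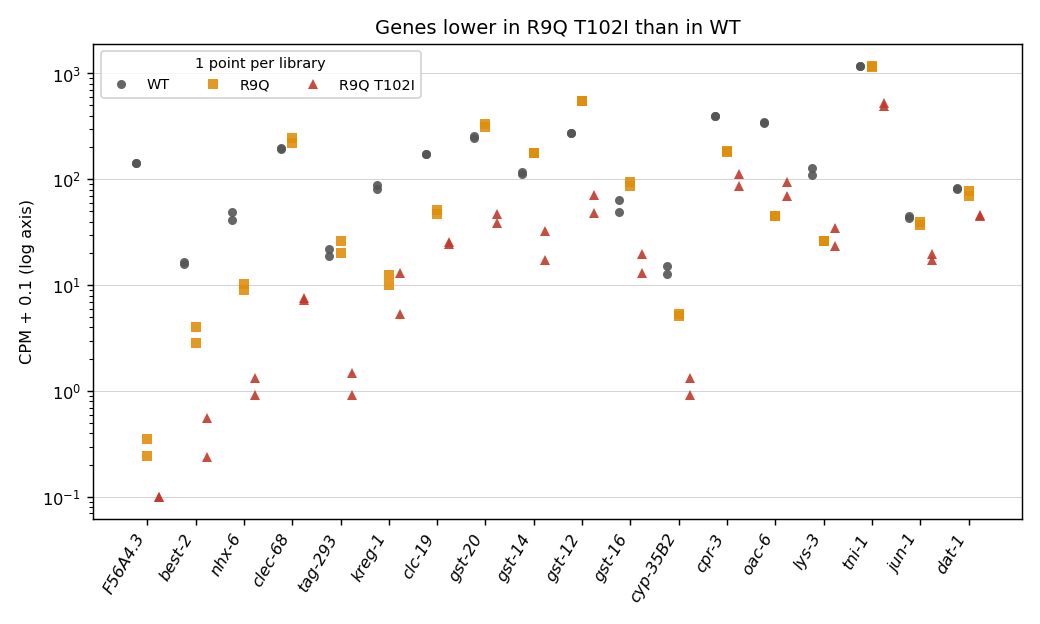
CPM plus 0.1 on a log axis for 18 genes called lower in the T102I strain, with 1 point per library of WT (circles), R9Q (squares) and the T102I strain (triangles). Both T102I points lie below both WT points for each gene; the R9Q points lie near WT for clec-68, at or above WT for the 4 glutathione transferases shown, and near the T102I strain for F56A4.3 and kreg-1.

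Neuronal gene lists held few calls. Of 16 tested synaptic vesicle genes, whose products are the cargo of UNC-104, none was called by edgeR. At an unadjusted edgeR p under 0.05 there were 5 below 0 and 0 above, and DESeq2 called 1 lower. Over all 11050 genes tested, 2508 had such a p in either direction. The median log2 fold change was -0.55, 14 of 16 lay below 0, and in 8 both T102I libraries lay under both WT libraries, against 27.9% of all genes. snb-1, the synaptobrevin of the vesicle, was at 921 and 899 CPM in WT and at 658 and 643 CPM in the T102I strain (log2 fold change -0.48, 95% interval -0.82 to -0.15, edgeR adjusted p = 0.122). unc-64, the syntaxin gene, showed how far the replicates could part: it stood at 38.2 and 41.03 CPM in WT but at 9.52 and 38.5 CPM in the T102I strain.

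All 9 tested genes of transmitter synthesis and loading had log2 fold changes below 0, with a median of -0.50, and 1 was called. This was dat-1, the plasma membrane dopamine transporter, at 80.4 and 82.8 CPM in WT and 44.98 and 45.7 CPM in the T102I strain (log2 fold change -0.84, SE 0.13, edgeR adjusted p = 0.046). The pan-neuronal marker list had a median of -0.30 over 9 tested genes, with 7 below 0; the median was -0.09 without T102I replicate 1. None of its members was called by edgeR, with 2 at an unadjusted p under 0.05, both below 0, and 1 called by DESeq2. The list holds snb-1, given above beside the vesicle genes, so it is not independent of the values given there. The part of this list in the vesicle and transmitter values was not tested. dat-1 was not called without WT replicate 1, without WT replicate 2 or with all 10 libraries.

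Neuropeptide and sensory lists held no edgeR call. Of 22 FLP peptide genes tested, the median was 0.35 (0.08 without T102I replicate 1), with 5 above 0 and 1 below 0 at an unadjusted p under 0.05 and 1 call in each direction by DESeq2. Of 47 tested NLP genes outside the antimicrobial list the median was -0.10, which became -0.28 without T102I replicate 1, 0.24 without T102I replicate 2 and 0.04 without WT replicate 1, with 3 above and 5 below at an unadjusted p under 0.05 and 0 DESeq2 calls. The lists of touch neuron genes (7 tested, median 0.00) and cilia genes (22 tested, median 0.14) had 0 members at an unadjusted p under 0.05 and 0 DESeq2 calls. mec-7, a tubulin of touch neurons, was at 357 and 393 CPM in WT and 404 and 346 CPM in the T102I strain. Of 20 tested insulin-like genes none was called by edgeR, with 4 above and 6 below 0 at an unadjusted p under 0.05 and 4 called higher by DESeq2. The kinesin-1 heavy chain gene unc-116 had a log2 fold change of -0.14 (SE 0.14), within the spread between replicates.

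In the JNK pathway 2 of 12 tested genes were called lower (16.7%, against 1.39% of all genes). kreg-1, a small gene regulated by the JNK-type kinase KGB-1, fell from 87.5 and 80.5 CPM to 13.05 and 5.201 CPM (log2 fold change -3.21, SE 0.45, edgeR adjusted p = 0.0369). jun-1, which encodes a transcription factor of the Jun family, fell from 45.03 and 43.3 CPM to 17.2 and 19.6 CPM (log2 fold change -1.26, SE 0.18). jun-1 has 9 transcripts and overlaps C16D2.1 on the same strand, so its counts may be partial. The median of the list was -0.52 and was 0.00 without T102I replicate 1, so it rested on that library; neither gene was called without WT replicate 1 or without WT replicate 2.

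**Figure D5:**
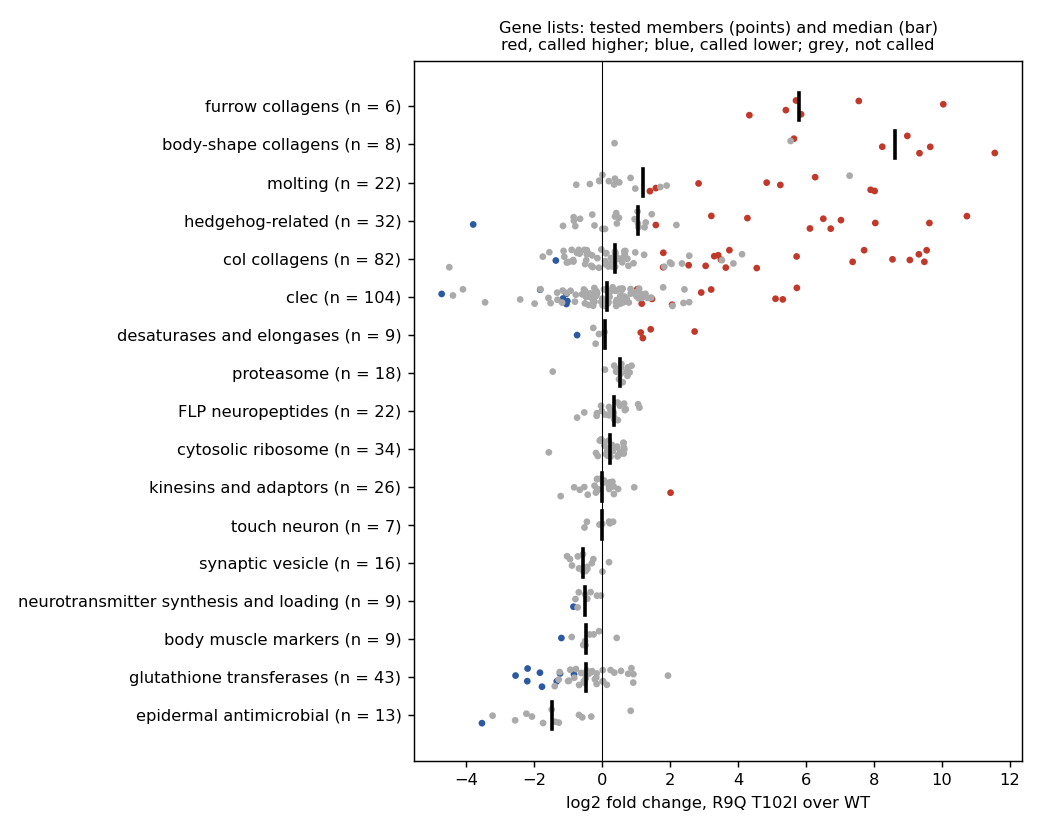
Log2 fold change of the T102I strain over WT for every tested member of 17 gene lists, with 1 point per gene and a bar at the list's median; red points were called higher, blue points lower and grey points not called. The furrow and body-shape collagens lie far to the right with medians of 5.78 and 8.62, the touch neuron and kinesin lists centre on 0.00, and the glutathione transferases and the epidermal antimicrobial genes lie to the left with medians of -0.49 and -1.49.

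Among the tissue markers, the muscle list had a median of -0.49 with 8 of 9 tested genes below 0, and tni-1, a troponin I gene, was called: it was at 1174 and 1188 CPM in WT and at 496 and 530 CPM in the T102I strain (log2 fold change -1.20, SE 0.13, edgeR adjusted p = 0.024). In the list used for intestine, pgp-1 and gcy-18 were called higher among 8 tested (25%, against 2.68% of all genes). Neither was called with all 10 libraries. The median of the list was 0.41, which was 0.20 without T102I replicate 1. Whether the gcy-18 reads came from the intestine was not tested. None of 12 pharyngeal, 18 germline or 9 oocyte markers was called by edgeR; at an unadjusted p under 0.05 there were 7, 5 and 0, and DESeq2 called 4, 1 and 0. The sperm gene spe-4 was the single call among 10 tested, and rose from 8.17 and 6.71 CPM to 24.9 and 21.6 CPM.

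No gene of the housekeeping and stress lists that follow was called by edgeR. Of 18 tested proteasome genes 17 lay above 0 with a median of 0.52, 11 had an unadjusted p under 0.05 and DESeq2 called 3. rpn-8, a subunit of its regulatory particle, was at 95.3 and 90.5 CPM in WT and at 166 and 148 CPM in the T102I strain (log2 fold change 0.76, SE 0.13, edgeR adjusted p = 0.0553). The 34 tested cytosolic ribosome genes had a median of 0.24, which became -0.17 without T102I replicate 1 and 0.55 without T102I replicate 2; 11 had an unadjusted p under 0.05 and DESeq2 called 6. The 14 tested genes of the mitochondrial genome had a median of -0.95, which was 0.045 without T102I replicate 1 and -7.93 without T102I replicate 2, so it was set by T102I replicate 1; 2 had an unadjusted p under 0.05 and DESeq2 called 1. Nuclear genes of the respiratory chain had a median of 0.27 over 27 tested, which became -0.06 without T102I replicate 1; 4 had an unadjusted p under 0.05 and DESeq2 called 0. Of 10 tested genes of the vacuolar proton pump 9 lay below 0 with a median of -0.40, 2 had an unadjusted p under 0.05 and DESeq2 called 1. Chaperones of the endoplasmic reticulum (7 tested) had 0 members at an unadjusted p under 0.05 and 0 DESeq2 calls. Heat shock genes (23 tested) had 1 and 0.

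The values of the R9Q libraries were set beside those of both strains, with no test, since the comparisons share the WT libraries. For the matrix genes R9Q lay closer to WT than to the T102I strain. The furrow collagens summed to 8.63 and 9.50 CPM in R9Q. noah-2, at 2.05 and 2.44 CPM, and the body-shape collagens, summing to 22.4 and 18.4 CPM against 4.75 and 6.86 CPM in WT, were above WT in R9Q. dpy-17, which was not called in the T102I strain, made up most of the latter sum, at 18.7 and 14.1 CPM. For the lectins R9Q lay on the side of the T102I strain, with clec-60 at 38.6 and 30.8 CPM and clec-61 at 8.34 and 8.34 CPM. Among the lower genes, nhx-6 was at 10.1 and 8.98 CPM in R9Q, clc-19 at 46.96 and 51.2 CPM, cpr-3 at 183 and 183 CPM and kreg-1 at 9.95 and 12.3 CPM, all below WT. clec-68, at 244 and 221 CPM, gst-20, at 331 and 313 CPM, and gst-12, at 544 and 548 CPM, were above the WT level in R9Q, while gst-22, at 17.3 and 26.1 CPM against 68.2 and 70.6 CPM in WT, was below it. The other 5 called glutathione transferases were above the WT level in R9Q.

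Some fatty acid genes lay on opposite sides of WT in the 2 strains. fat-7 was at 2.49 and 2.70 CPM in R9Q, and acs-2 at 434 and 444 CPM, both under WT and under the T102I strain. Genes picked because earlier results showed them far below WT in R9Q were spp-9, cpt-3 and cyp-13B1, at 0.439 and 0.385, 3.51 and 3.47, and 13.2 and 16.3 CPM in R9Q. In the T102I strain cpt-3, a carnitine palmitoyltransferase gene, was at 40.8 and 41.2 CPM against 50.7 and 59.8 CPM in WT (log2 fold change -0.43, 95% interval -0.85 to -0.0016, edgeR adjusted p = 0.219). cyp-13B1 was at 161 and 188 against 215 and 198 CPM (log2 fold change -0.24, 95% interval -0.61 to 0.12, edgeR adjusted p = 0.387). spp-9 was at 126 and 58.7 against 45.9 and 45.2 CPM (log2 fold change 1.02, 95% interval 0.02 to 2.02, edgeR adjusted p = 0.214). None of the 3 differed from WT beyond the threshold, and the intervals do not show that they were equal.

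The share of called genes differed between nuclear chromosomes, from 1.85% on chromosome I to 5.78% on chromosome V. Of the 14 tested genes of the mitochondrial genome 0 were called. Chromosome V carried 2527 of the 11050 genes tested, 70 of the 154 lower genes and 76 of the 296 higher ones. Its part of the higher genes was thus close to its part of the genes tested. Neighbouring genes within 20000 bases that moved together included dpy-10, T14B4.19 and dpy-2 (II, 6710149 to 6715971), wrt-1, wrt-10 and rol-8 (II, 7530996 to 7545335) and lpr-3, lpr-5 and lpr-4 (X, 11057401 to 11066811), all higher. The glutathione transferases on chromosome II were the run of lower genes with 4 members.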

How the data were processed

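The authors deposited raw counts per transcript. Per the submitters' processing notes, Trim Galore 0.4.4, STAR 2.5.4b with ce11 and HTSeq 0.9.1 were used; no source used here gave the strand setting or the annotation release. Without the strand, overlapping genes cannot be told apart. The 5 summary entries were left out, and counts of 61451 transcripts were summed to 46907 genes; 89 names, with 0.0486% of counts, matched no gene. Ambiguous reads, 57.7 to 61.8% of aligned reads, were not counted, so genes with several transcripts were measured in part.

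The 4 libraries were fitted in R 4.3.3 with edgeR 4.0.16 (filterByExpr, minimum count 10; TMM; glmQLFTest; Benjamini-Hochberg over all genes, threshold 0.05; 2 residual degrees of freedom). CPM values share TMM factors over the 10 libraries (0.8993 to 1.1). Intervals were worked back from the test. Coordinates are those of the WBcel235 annotation, the assembly of ce11.

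Named genes were unc-104, unc-16, the 12 largest changes in each direction with a mean count of at least 50, up to 4 called members per list, and the 6 largest in each direction also called with all 10 libraries; other genes named were picked after their values were seen. The members and the 57 gene lists were chosen with earlier results of these data known. Lists were described by counts and medians; 34 lists held a call, 22 held none and 1 had no tested member. Alternatives were other scalings, filters, library sets, DESeq2 1.42.0 and a replicate block.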

Additional observations from a re-analysis of the deposited data

Results flagged for a closer look

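Signal of the genes described above also appeared in libraries outside the comparison. The 6 furrow collagens summed to 540 CPM in G265R replicate 2, 42.2 CPM in unc-16 replicate 1 and 2515 CPM in unc-16 replicate 2, all above the 6.86 and 7.88 CPM of the WT libraries, while G265R replicate 1 stood at 6.03 CPM. In the 2 strains with a high and a low library, the higher one was that with about 0.02% of assigned counts on the mitochondrial genome (0.02% and 0.0194%). clec-60 stood at 221 and 648 CPM in the G265R libraries and at 572 and 1082 CPM in the unc-16 libraries, above the 1.63 and 1.53 CPM of WT. These differences were not tested.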

How the results depend on the processing

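Of the alternatives set beside the 450 calls, upper quartile factors gave 450, DESeq2 size factors 454, scaling that left out mitochondrial and rRNA genes 479 and a filter of 5 CPM in 2 libraries 508. Without a filter 778 of 21910 genes were called, with the DESeq2 Wald test 1011, and with all 10 libraries 12. All 10 libraries with a term for the 3 libraries poor in mitochondrial transcripts gave 393, of which 159 were among the 450 and 39.9% were higher, against 65.8% in the fit of 4; the sign was kept for 449 of 450. Leaving out 1 library gave 54 to 5710 calls; the lone sample of a strain was then assumed to vary like the other strain. The replicate number as a block gave 97 calls (77 higher, 20 lower), all among the 450. Same-numbered libraries deviated together with a correlation of 0.0403, so the numbers were not taken to pair samples. Of the 125 genes named by the rule or called in both fits, 90 lost their call with all 10 libraries and 57 under the block, and none changed direction in any of these settings. With 2 libraries per strain and unequal spread between strains, the number of calls is uncertain, and changes of weakly counted genes are least precise.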

Other observations

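Further called genes, chosen after their values were seen, touched the glycosylated surface and the skin's osmotic response. osr-1 and osm-8, known from animals with altered osmotic resistance, had 3 and 2 counts over both WT libraries. In the T102I strain osr-1 was at 10.4 and 11.5 CPM and osm-8 at 8.14 and 6.98 CPM, ratios of 48.7 (95% counting interval 16.4 to 239) and 50 (13.5 to 418). bus-5, an enzyme of nucleotide sugar metabolism needed for an intact surface, was at 3.57 and 6.25 CPM in WT and 56.3 and 69.1 CPM in the T102I strain (edgeR adjusted p = 0.016). glf-1, a mutase that makes a sugar of the surface coat, rose from 0.446 and 1.07 CPM to 41.9 and 34.2 CPM.

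A pair of abundant bHLH transcription factor genes also rose. mxl-3 was at 408 and 400.3 CPM in WT and at 2135 and 1713 CPM in the T102I strain, with 862 CPM as the R9Q mean. mdl-1 was at 575 and 579 CPM in WT and at 1546 and 1402 CPM in the T102I strain, with 1126 CPM as the R9Q mean. haly-1, which encodes a histidine ammonia lyase, fell from 295 and 290 CPM to 75.2 and 72.8 CPM.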
